A study of Homo sapiens with 6 samples.

Results

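The gene-end regions that H4K12la and HDAC1 had in common in HepG2 cells were examined: stretches of the genome with a called peak in both H4K12la libraries and both HDAC1 libraries and in neither ENO1 library. Peaks of all 6 lists that shared at least 1 bp were merged on the 24 chromosomes 1 to 22, X and Y, which gave 13626 merged regions, of which 4993 came within 1 kb of either end of a RefSeq protein-coding gene. Of these, 467 met the rule. They were thus chosen by the presence of called peaks in these same lists, and their number is a description. They touched 616 of 19862 protein-coding genes, or 3.1% of all of them. HepG2 is an established human line derived from a hepatocellular carcinoma. The labels name no treatment or genetic change and give 2 replicates for each of 3 antibody targets in the same line. Whether replicates are separate cultures is not stated, and the spread within a target may therefore be technical only. CUT&Tag, the assay used, tethers a transposase to an antibody on chromatin and sequences the DNA that the enzyme cuts nearby.

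Lysine lactylation is a modification of histone tails derived from lactate, the end product of glycolysis, and H4K12la is this modification on lysine 12 of histone H4. HDAC1 is a class I lysine deacetylase and the catalytic subunit of the NuRD, SIN3 and CoREST complexes, which remove acetyl groups from histones at promoters and enhancers. Class I deacetylases are also known to take off other acyl groups, lactyl among them. ENO1 is enolase, a glycolytic enzyme, and was the remaining antibody target. The study's stated question was how ENO1 and HDAC1 bear on histone lactylation and transcription.

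For H4K12la the lists held 5459 and 7568 peaks, for HDAC1 5727 and 4567, and the ENO1 lists were shorter, with 1592 and 1189. Sequencing depth cannot be read from the lists, so a region without a called peak may still have carried signal. Among genes that mark hepatocytes, none of ALB, AFP, TTR, APOA1, APOB or SERPINA1 had a shared region. HNF4A and FOXA1, regulators of liver genes, had peaks in both H4K12la libraries and in HDAC1 replicate 1 only. Defining markers of blood cells (PTPRC, CD3D, CD14, HBB), neurons (SYT1, SNAP25) and muscle (MYH7, ACTA1, CKM, TTN) had no peak in any list, while 1 gene of a longer list of 30 blood and immune markers had an H4K12la-only region. At the targets' own genes, ENO1 had HDAC1 peaks of fold 4.51 and 4.90 and no H4K12la peak, and HDAC1 had a single peak, in H4K12la replicate 2. MYC, a growth regulator, had HDAC1 peaks of fold 4.54 and 3.27, and LDHA, a lactate dehydrogenase subunit, a peak in H4K12la replicate 2 alone.

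In 149 shared regions a single start of the RefSeq promoter table lay within 1 kb, with no other annotated gene in the bases upstream. In 8 of these all 4 summits fell within the 250 bases upstream. That table holds a start for 15841 of the 19862 coding genes, so a start missing from it may also lie near. A summit is the base of highest signal that the peak caller reports. The RefSeq promoter sequences (GRCh38.p14) of 7 of the 8 are printed to show the bases around summits that all fall just upstream of the start, and that of TFAM is set beside them because 1 of its summits lay further out. These genes were chosen after their values were seen. Each line runs 5′ to 3′ along the gene's strand and ends at the base just before the start. Capitals mark exact matches, on either strand, to the 10 motifs searched, spelled out with their frequencies further on.
TFB1M: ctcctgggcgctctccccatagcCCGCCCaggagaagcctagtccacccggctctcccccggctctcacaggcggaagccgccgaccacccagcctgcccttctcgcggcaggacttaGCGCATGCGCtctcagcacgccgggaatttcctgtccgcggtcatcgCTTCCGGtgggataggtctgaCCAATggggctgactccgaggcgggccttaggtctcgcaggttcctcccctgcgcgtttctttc
PARK7: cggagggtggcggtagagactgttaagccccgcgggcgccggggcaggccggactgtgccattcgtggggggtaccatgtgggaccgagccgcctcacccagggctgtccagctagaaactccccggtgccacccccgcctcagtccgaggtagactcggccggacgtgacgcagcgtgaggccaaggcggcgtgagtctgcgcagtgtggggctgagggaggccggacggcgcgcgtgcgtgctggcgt
SMC3: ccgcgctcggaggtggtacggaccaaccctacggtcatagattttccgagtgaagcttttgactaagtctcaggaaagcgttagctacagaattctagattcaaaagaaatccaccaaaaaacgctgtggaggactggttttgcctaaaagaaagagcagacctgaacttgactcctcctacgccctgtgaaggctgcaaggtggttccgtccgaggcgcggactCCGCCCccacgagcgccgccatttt
GDF5: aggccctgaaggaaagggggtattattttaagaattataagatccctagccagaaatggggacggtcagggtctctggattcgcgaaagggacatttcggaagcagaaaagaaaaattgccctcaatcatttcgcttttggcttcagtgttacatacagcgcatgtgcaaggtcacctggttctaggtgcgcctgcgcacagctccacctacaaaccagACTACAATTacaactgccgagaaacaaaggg
FARSB: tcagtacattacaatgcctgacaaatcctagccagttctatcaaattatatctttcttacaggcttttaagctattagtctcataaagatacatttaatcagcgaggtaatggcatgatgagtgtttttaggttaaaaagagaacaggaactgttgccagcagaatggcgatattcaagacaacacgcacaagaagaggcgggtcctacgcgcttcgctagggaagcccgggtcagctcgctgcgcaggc
F5: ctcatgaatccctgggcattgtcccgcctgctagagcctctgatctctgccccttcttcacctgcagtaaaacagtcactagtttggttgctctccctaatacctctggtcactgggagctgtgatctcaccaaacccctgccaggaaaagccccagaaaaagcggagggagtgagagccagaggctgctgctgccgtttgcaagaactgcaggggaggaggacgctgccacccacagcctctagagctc
GCKR: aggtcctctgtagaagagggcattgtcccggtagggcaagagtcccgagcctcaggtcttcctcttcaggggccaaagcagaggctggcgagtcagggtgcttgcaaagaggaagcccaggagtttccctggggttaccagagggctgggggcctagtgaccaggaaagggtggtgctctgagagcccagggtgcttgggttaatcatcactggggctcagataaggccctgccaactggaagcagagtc
TFAM: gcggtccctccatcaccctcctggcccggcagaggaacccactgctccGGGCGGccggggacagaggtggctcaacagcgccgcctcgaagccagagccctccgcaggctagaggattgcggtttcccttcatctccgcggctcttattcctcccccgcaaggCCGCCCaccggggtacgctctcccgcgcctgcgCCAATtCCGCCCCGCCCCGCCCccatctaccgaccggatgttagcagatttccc

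In TFB1M, a mitochondrial rRNA methyltransferase and transcription factor (minus strand, chr6:155314485-155314734), the capitals mark a GC box, a pair of overlapping NRF1 core matches at positions -132 to -123, an ETS match at -85 to -79 and a CCAAT box at -64 to -60. All 4 summits lay on the same base, at -70, between the ETS match and the CCAAT box. In TFAM, which packages mitochondrial DNA and activates its transcription (plus strand, chr10:58385160-58385409), 5 GC boxes and a CCAAT box were found. Its H4K12la summits lay at -71 and -155 and its HDAC1 summits at -185 and -394. PARK7, which encodes the redox-protective protein DJ-1 (plus strand, chr1:7961461-7961710), held none of the motifs in 250 bases with 28 CpG sites. Its summits lay at -41 and -40 for H4K12la and at -152 and -38 for HDAC1, so 3 of the 4 libraries placed them within a few bases.

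SMC3, a core cohesin subunit (plus strand, chr10:110567445-110567694), had summits at -222 and -223 for H4K12la and at -229 and -223 for HDAC1, close to the 5′ end of the printed line and far from its single GC box at -25 to -20. The line headed GDF5 (minus strand, chr20:35454750-35454999) comes from a region assigned to both GDF5, a growth factor of joint development, and CEP250, a centrosome linker protein. There the summits lay at -99 and -102 for H4K12la and at -101 and -99 for HDAC1, upstream of a ZNF143 core match at -31 to -23. FARSB, the beta subunit of phenylalanyl-tRNA synthetase (minus strand, chr2:222656093-222656342), had no match and a GC content of 44.4%. Its summits lay at -83 and -72 for H4K12la and at -44 and -222 for HDAC1.

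F5 and GCKR are liver genes. F5 encodes coagulation factor V (minus strand, chr1:169586482-169586731), and GCKR the regulator of glucokinase (plus strand, chr2:27496589-27496838). Their printed bases held 4 and 3 CpG sites and no motif match. The F5 summits lay at -118 and -152 for H4K12la and at -152 and -148 for HDAC1. The GCKR summits were more spread, at -205 and -135 for H4K12la and at -80 and -112 for HDAC1. GCKR had modest folds in every library, 3.56 and 3.19 for H4K12la and 4.02 and 4.00 for HDAC1. The remaining gene of the 8, SUGT1, a co-chaperone, had summits at -192 and -190 for H4K12la and at -189 and -107 for HDAC1.

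Membership depended on all 4 libraries having a call. The 467 regions made up 27.8% (95% Wilson interval 25.7 to 30) of the 1680 gene-end regions with both H4K12la peaks and no ENO1 peak, and 37.2% (34.6 to 39.9) of the 1256 with both HDAC1 peaks. These intervals, like all others given here, cover counting error only. Regions of a single target, with both of its peaks and no peak of the other targets, numbered 812 for H4K12la and 473 for HDAC1. Away from genes the pair also met: 737 regions had all 4 peaks and no ENO1 peak anywhere in the genome, and 63.4% (59.8 to 66.8) of them were at gene ends. Another 14 gene-end regions with all 4 peaks also had an ENO1 peak. A further 717 gene-end regions had 3 of the 4 peaks, of which 319 lacked HDAC1 replicate 2 and 263 lacked H4K12la replicate 1. Without HDAC1 replicate 2 the count became 786 and without H4K12la replicate 1 it became 730, both over 1.5 times the 467. With only peaks of -log10 q of at least 5 it fell to 233 regions, and with the 4567 strongest peaks of each H4K12la and HDAC1 list to 291.

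Most members sat on the gene end itself: 391 of them, or 83.7%, overlapped an end base. In 373 regions every gene end reached was a start, in 16 both a start and a far end were reached, and in 7 only a far end was. Those 7 included ASS1, an enzyme of the urea cycle, LCMT1, a carboxyl methyltransferase, and TRIM38, a ubiquitin ligase of innate immune signalling. In the other 71 the table gave no start for at least 1 of the genes (52 with no start known, 18 with a start besides, 1 with a far end besides). Near the limit, TRIM38 and TDRD3 were 921 bp and MAGI2 904 bp from a gene end and were kept. LOC124901803 at 1018 bp, ATP5F1B, a subunit of ATP synthase, at 1058 bp and SCAF11, a splicing-related factor, at 1062 bp fell just outside.

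Some members lay at pairs of genes transcribed away from each other. Of the 467 regions, 80, or 17.1% (14 to 20.8), came within 1 kb of both starts of a head-to-head pair. The same held for 8.37% (6.66 to 10.5) of the H4K12la-only and 12.1% (9.42 to 15.3) of the HDAC1-only gene-end regions. The HDAC1-only interval overlapped that of the members, and the share over all gene-end regions was not computed. Regions that touched 2 genes made up 29.6% of the members, 16.1% of the H4K12la-only and 27.5% of the HDAC1-only regions. Pairs with a start missing from the table were not counted. The members' paired starts lay a median of 292.5 bp apart. Examples were CEP290, a protein of the ciliary transition zone, with TMTC3, and ATM, the DNA damage kinase, with NPAT, the activator of histone genes. RBBP4, a histone-binding subunit of some HDAC1 complexes, faced ZBTB8OS. A lncRNA end also lay within 1 kb of 28.7% of the members, against 25.4% of the H4K12la-only and 21.6% of the HDAC1-only regions. No test was made of these shares, because the classes were set by the peaks themselves. Median folds differed little between kinds of member: in head-to-head regions they were 3.67 and 4.10 for H4K12la and 5.73 and 5.24 for HDAC1, and in regions of 1 start 3.94 and 4.3 for H4K12la and 5.42 and 4.95 for HDAC1.

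The members were unevenly spread over the chromosomes. The share of protein-coding genes touched was highest on chromosome 14, at 8.46% (6.49 to 11), then on chromosomes 2 (7.34%, 6.02 to 8.91) and 10 (6.55%, 4.97 to 8.58). It was 5.40% on chromosome 20 and 5.04% on chromosome 21. H4K12la-only regions touched even more genes on chromosomes 2 (8.61%), 10 (6.96%) and 20 (7.08%), against 4.81% of all coding genes. They touched fewer on chromosomes 14 (5.64%) and 21 (2.10%). The copy number of the chromosomes in these cells was not examined. Chromosome 19, which has 1410 coding genes, had only 6 touched, or 0.426% (0.195 to 0.925), and chromosome X 2 of 848. On chromosome 19 the H4K12la-only regions also touched few genes, 0.496%, whereas the HDAC1-only regions touched 7.38%. The genes touched had a median length of 37.3 kb, against 24.5 kb over all coding genes, 47.2 kb for H4K12la-only and 18.4 kb for HDAC1-only genes.

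Column 7 of each list is the fold enrichment of a peak over the caller's local background, and it is the authors' value. Over the members it ran from 2.21 to 7.26 with a median of 3.91 in H4K12la replicate 1, and from 2.23 to 8.40 with a median of 4.22 in replicate 2. For HDAC1 it ran from 2.90 to 9.91 with a median of 5.51 in replicate 1, and from 2.65 to 9.98 with a median of 5.07 in replicate 2. Within each list, other peaks at gene ends had medians of 3.95 and 4.00 for H4K12la and of 4.51 and 4.61 for HDAC1. By median fold the members were thus above those peaks by about 1 unit in HDAC1 replicate 1 and by less in HDAC1 replicate 2 and H4K12la replicate 2. In H4K12la replicate 1 they were slightly below. By median -log10 q the members were above the other gene-end peaks in every library, with 6.44 against 5.29 in H4K12la replicate 1. Gene-end regions of a single target had median folds of 4.08 and 4.25 for H4K12la, above those of the members, and of 4.68 and 4.52 for HDAC1, below them. A peak required in 4 lists is not an independent draw from any of them, so no test was made. The member peaks were also wider: their medians were 648 and 811 bp for H4K12la and 639 and 502 bp for HDAC1, against 562 and 581 bp and 510 and 427.5 bp for other gene-end peaks. Folds of different libraries are not on a common scale, so comparisons between targets below use ranks.

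The regions with the best mean rank of fold over the 4 libraries are led by LRIF1, which encodes a partner of the SMCHD1 silencing protein (chr1:110963339-110964191). Its folds were 7.26 and 5.66 for H4K12la and 9.29 and 9.48 for HDAC1. ERRFI1, a feedback inhibitor of the EGF receptor (chr1:8026334-8027496), had folds of 6.95 and 6.30 for H4K12la and 8.42 and 7.49 for HDAC1. NT5C3A, a pyrimidine nucleotidase (chr7:33062610-33063397), had 4.95 and 5.86 for H4K12la and 9.71 and 9.72 for HDAC1. These regions were high in every library, but their order differed between libraries, replicates of H4K12la included. B3GALNT2, a glycosyltransferase that acts on dystroglycan, EBAG9, TP53I3, a quinone oxidoreductase induced by p53, and the shared ends of CAGE1 and RIOK1, a ribosome-maturation kinase, came next. TSG101, a subunit of the ESCRT-I sorting complex, had folds of 5.49 and 5.04 for H4K12la and 8.0 and 7.78 for HDAC1. RAP2A, a small GTPase, had 4.69 and 5.08 for H4K12la and 9.0 and 9.98 for HDAC1, the highest HDAC1 replicate 2 fold of any member. CCDC174 had the highest H4K12la replicate 2 fold, 8.40, with 6.03 in replicate 1 and 5.57 and 6.98 for HDAC1. CEP290 with TMTC3, FBXO33, BRWD1 with PSMG1, CBLB, C16orf46, SWT1 with TRMT1L, CDC27 with MYL4, PARK7, TFB1M and ENSA complete the 20 regions with the best mean rank.

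**Figure D1:**
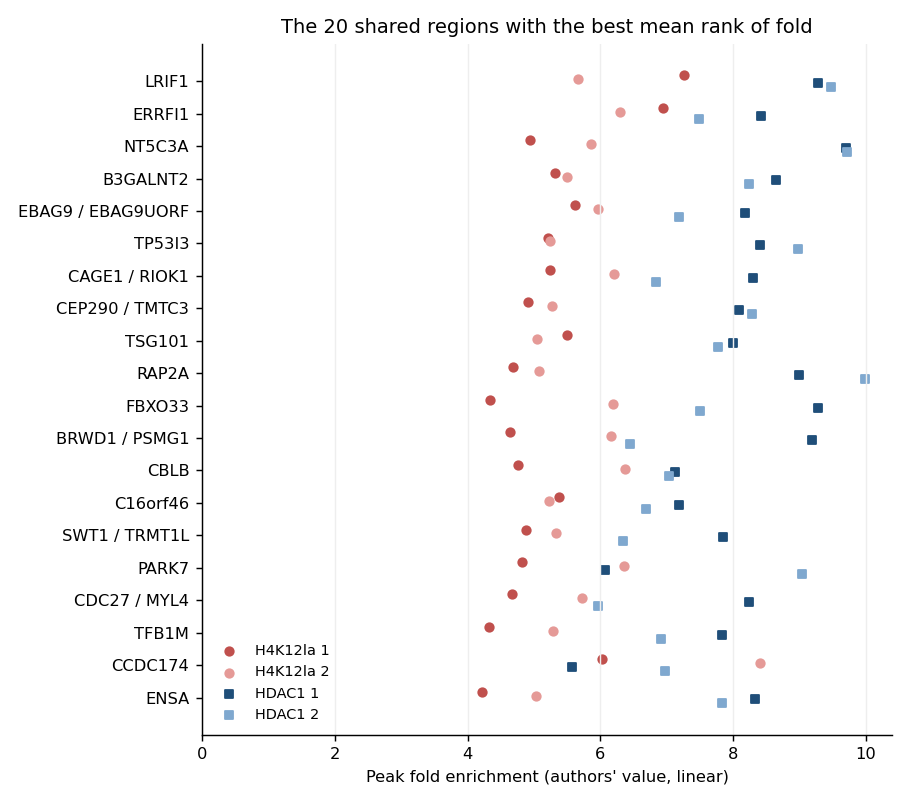
Peak fold enrichment (linear, the authors' value) on the horizontal axis for the 20 shared regions with the best mean rank, named on the vertical axis, with circles for the H4K12la and squares for the HDAC1 replicates. LRIF1 is at the top with folds of 7.26 and 5.66 for H4K12la and 9.29 and 9.48 for HDAC1, and CCDC174 has the highest H4K12la replicate 2 fold of all members (8.40).

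Ranks of fold were held in common by replicates more than by targets. Over the 467 regions Spearman's rho was 0.595 between the H4K12la replicates and 0.672 between the HDAC1 replicates. Between the targets it was 0.272 for replicate 1 with replicate 1, 0.247 for replicate 2 with replicate 2, 0.246 for H4K12la replicate 1 with HDAC1 replicate 2, and 0.334 for H4K12la replicate 2 with HDAC1 replicate 1. The highest between-target value thus lay below the lower same-target value. These are correlations across regions of the same 4 lists, which are not independent replicates, and carry no p. Pairing the libraries by target gave a mean rho of 0.633, against 0.259 by replicate number and 0.290 crosswise. An exact permutation test over these 3 pairings, one-sided, gave p = 0.333, the smallest it allows, so no smaller p could be had in this design. In all 4 libraries 17 regions lay in the top 25% by fold, among them APIP with PDHX, where PDHX is a component of the pyruvate dehydrogenase complex, and CDC45, a replication helicase subunit, with UFD1. In both H4K12la libraries 68 did, and in both HDAC1 libraries 70.

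**Figure D2:**
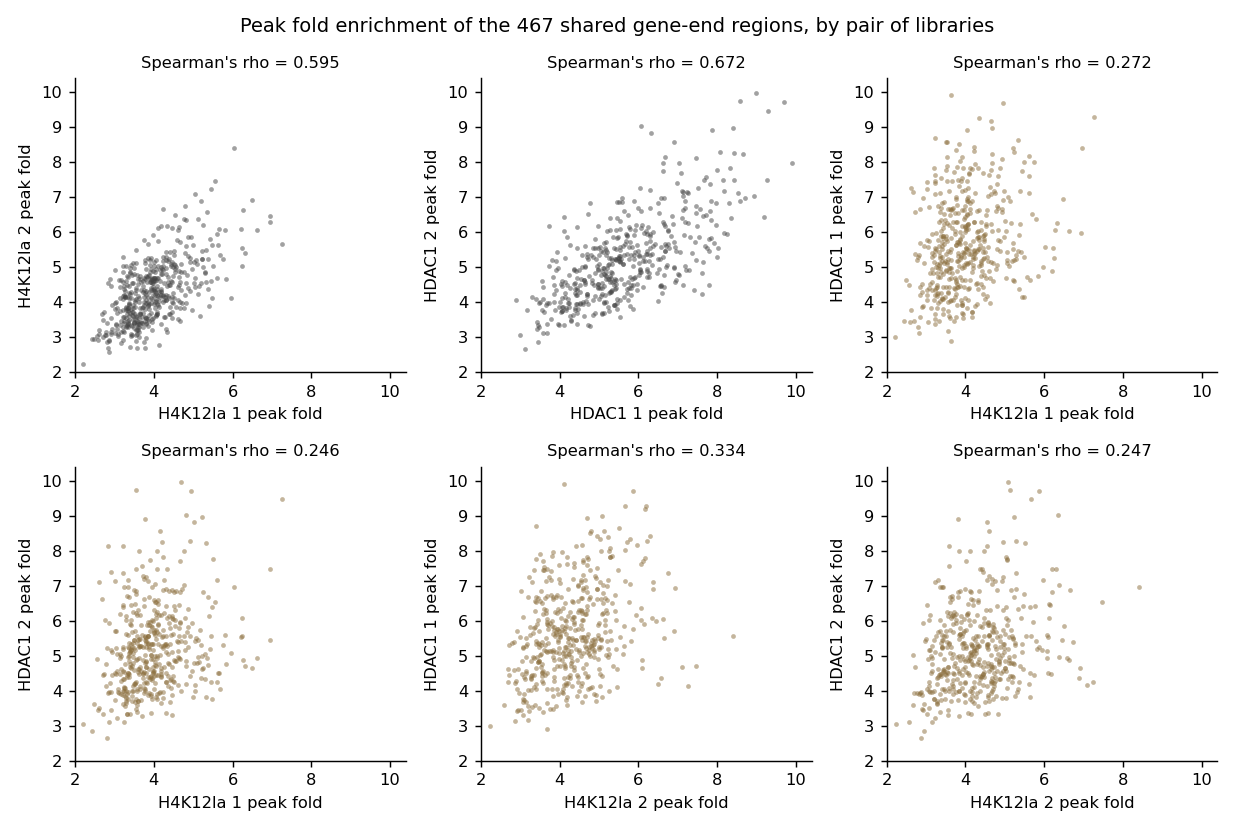
Each point is 1 of the 467 shared regions, with its peak fold in the library on the horizontal axis against that in the library on the vertical axis (linear, the authors' value), for the 6 pairs of libraries. The same-target pairs (first 2 panels, Spearman's rho 0.595 and 0.672) form narrower clouds than the 4 between-target pairs (0.246 to 0.334).

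Some regions ranked high for only 1 of the targets. AFG1L, a mitochondrial ATPase (chr6:108294232-108295549), had a mean rank of 14 of 467 for H4K12la and 386.5 for HDAC1, with folds of 5.44 and 7.25 against 4.15 and 4.26. GUF1, a mitochondrial elongation factor, had folds of 5.65 and 6.08 for H4K12la and 4.65 and 4.52 for HDAC1. LIN7C, a scaffold protein of cell polarity, TTLL4, a tubulin glutamylase, and FAM185A leaned the same way. In the opposite direction, the divergent pair PRR11 and SKA2, both of which act in cell division, had a mean rank of 442.5 for H4K12la and 49 for HDAC1, with folds of 2.61 and 3.21 against 7.27 and 7.13. MTMR4, a phosphoinositide phosphatase, had 3.35 and 3.30 for H4K12la and 7.12 and 7.18 for HDAC1. CDCA2 with KCTD9, ANKRD10, and a region at SF3B6, a splicing factor of the U2 particle, with the ends of FAM228B and TP53I3 leaned towards HDAC1 too. TP53I3 also had the separate region named above among the strongest of both targets. These 10 regions were picked for the difference in mean rank, so the separation of the targets in them is a description. How many of the 467 regions separated the targets in all libraries was not counted.

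The summits of the 2 targets were on average further apart than those of replicates. The median distance between summits of the same region was 151 bp between the H4K12la replicates and 88 bp between the HDAC1 replicates. Between targets it was 172 bp for replicate 1 with replicate 1, 161 bp for replicate 2 with replicate 2, 188 bp for H4K12la replicate 1 with HDAC1 replicate 2, and 156 bp for H4K12la replicate 2 with HDAC1 replicate 1. The H4K12la replicates were therefore nearly as far from each other as from HDAC1, and the gap in the mean over pairings, 119.5 bp by target against 166.5 bp by number and 172 bp crosswise, rests largely on the close HDAC1 replicates. The one-sided exact permutation test over the 3 pairings gave p = 0.333, the smallest possible. With members chosen again without HDAC1 replicate 2, between-target pairs exceeded the H4K12la pair by 7.75 bp, and without HDAC1 replicate 1 by 26 bp, against 49.75 bp with all libraries. Without H4K12la replicate 2 they exceeded the HDAC1 pair by 90 bp. Summits lay on the same base in 2.36% to 5.57% of regions, depending on the pair. In the 156 regions with the best mean rank the medians were lower in all 6 pairs: 114.5 bp between H4K12la and 63.5 bp between HDAC1 replicates, and 117.5 to 145.5 bp between targets. In the 155 of middle rank they were 164 and 98 bp between replicates and 151 to 213 bp between targets, so some between-target pairs there were closer than the H4K12la replicates. In the 156 with the poorest mean rank they were 181.5 and 114 bp between replicates and 189.5 to 242 bp between targets.

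**Figure D3:**
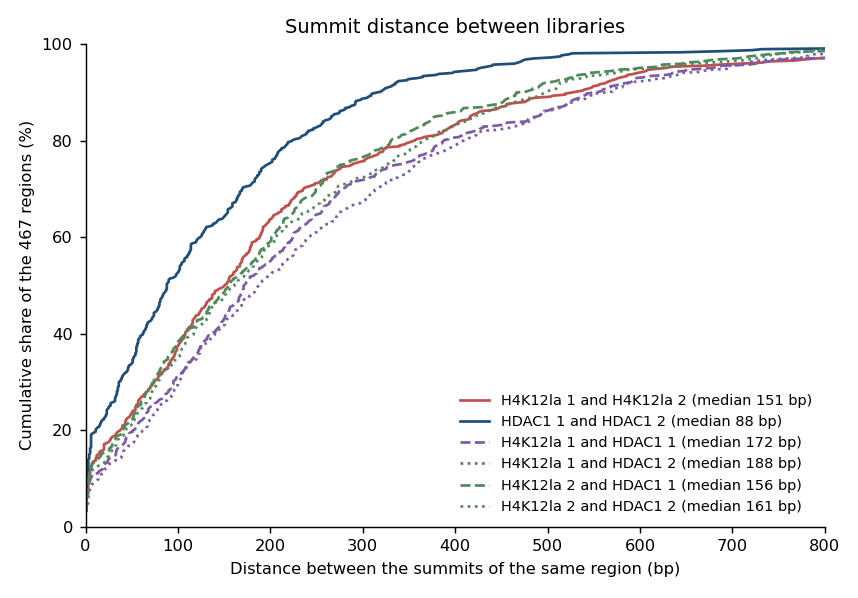
Cumulative share of the 467 shared regions (vertical axis, %) whose summits in a pair of libraries lie within the distance on the horizontal axis (bp, shown to 800), for the 6 pairs. The HDAC1 pair (median 88 bp) rises first, while the H4K12la pair (151 bp) runs close to the between-target pairs (156 to 188 bp).

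At some regions the 4 libraries placed the summit almost identically. The 4 summits lay on a single base in 2 regions, within 10 bp in 10 and within 100 bp in 40, or 8.57%, while the median spread of the 4 was 335 bp. The single-base regions were TFB1M and the region of OSTF1, an osteoclast-related signalling adaptor, and NMRK1, a nicotinamide riboside kinase. At the latter the summits lay 445 bp upstream of the OSTF1 start, and folds were 5.75 and 5.25 for H4K12la and 8.01 and 5.30 for HDAC1. KDM8, a JmjC-domain enzyme, had summits at 179, 179, 181 and 179 bp into the gene, and folds of 3.78 and 5.11 for H4K12la and 6.79 and 5.55 for HDAC1. STK35, a nuclear kinase, had summits at 552, 548, 552 and 552 bp into the gene. The other regions within 10 bp were CEP290 with TMTC3, EIF3H with UTP23, CEP250 with GDF5, SMC3, LIN7C and NCAPH, a condensin subunit. LIN7C was also among the regions that leaned most to H4K12la in rank, so a common summit did not go with a common rank there.

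The widest separations were of a different order. At BIRC2, an inhibitor of apoptosis (chr11:102346820-102348272), the H4K12la summits were on average 950 bp from the HDAC1 summits, and the 4 summits spanned 1373 bp, the widest of all members. At SPAG4, a LINC-complex protein, the means were 800.5 bp apart, at STT3A, the catalytic subunit of oligosaccharyltransferase, 777 bp, and at the divergent pair CEP95 and DDX5, an RNA helicase, 723.5 bp. At FAM86B2 they were 740 bp apart, but this gene belongs to a family of near-identical copies, so its reads may come from elsewhere. In STT3A both H4K12la summits lay below both HDAC1 summits in coordinate, with folds of 3.88 and 3.47 for H4K12la and 5.34 and 5.88 for HDAC1. At the other extreme the mean H4K12la and mean HDAC1 summit coincided at TFB1M, LIN7C and PNP, purine nucleoside phosphorylase, although at PNP the 4 summits spanned 202 bp.

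Around gene starts, H4K12la summits tended into the gene and HDAC1 summits ahead of it, with a broad overlap. In the 292 members with a single start in the table, the median summit position was 45 and 29 bp downstream of the start for the H4K12la replicates, and -17.5 and -85 bp, that is upstream, for the HDAC1 replicates. Summits lay downstream in 57.2% and 53.4% of regions for H4K12la and in 48.3% and 41.1% for HDAC1. The means of the medians differed by 88.2 bp between the targets. Within a region the shift was smaller. Over the 4 between-target pairs of libraries the median difference placed the H4K12la summit 3 to 16.5 bp downstream of the HDAC1 summit. The H4K12la summit was the more downstream one in 51.7% to 55.8% of regions. Replicate 1 minus replicate 2 gave a median of -2 bp for H4K12la, with replicate 2 the more downstream in 152 of the 292 regions, and 0.5 bp for HDAC1. The smallest between-target shifts were thus about the size of a replicate shift. The replicate groups did not overlap, but an exact permutation test of 2 libraries against 2, two-sided, cannot go below p = 0.333, which it gave here. That test was made for 4 such values, and the adjusted p was 0.333 for each. The side also moved with the choice of members: without H4K12la replicate 1 the median of H4K12la replicate 2 became -3 bp, and without HDAC1 replicate 2 that of HDAC1 replicate 1 became 12.5 bp.

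In the shared regions HDAC1 summits came closer to the start. They lay within 150 bp of it in 34.6% and 35.6% of the 292 regions, against 25.3% and 27.1% for H4K12la. In the 80 head-to-head regions the summit fell between both starts in 48.8% and 53.8% for HDAC1 and in 22.5% and 33.8% for H4K12la. In both measures the HDAC1 libraries were above the H4K12la libraries without overlap, with the same smallest p of 0.333 by the exact permutation test. Region by region the targets mostly shared a side: all 4 summits were downstream in 90 regions and all 4 at or upstream of the start in 90. Both H4K12la summits were downstream and both HDAC1 summits not in 21 regions, and the reverse held in 5. In the remaining 86 the replicates of a target fell on different sides. In regions of a single target the median position lay further to that target's side, 178 and 153 bp downstream over 571 H4K12la-only regions and -191 and -169 bp over 313 HDAC1-only regions. Without regard to side, the median distance from the start was 251 and 234 bp in the H4K12la-only regions, against 295.5 and 252 bp for H4K12la in the shared regions. It was 255 and 243 bp in the HDAC1-only regions, against 204 and 199 bp for HDAC1 in the shared regions. Summits lay within 150 bp of the start in 26.6% and 31.9% of H4K12la-only and in 24.0% and 27.5% of HDAC1-only regions. The higher HDAC1 share of the shared regions was thus not seen there.

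**Figure D4:**
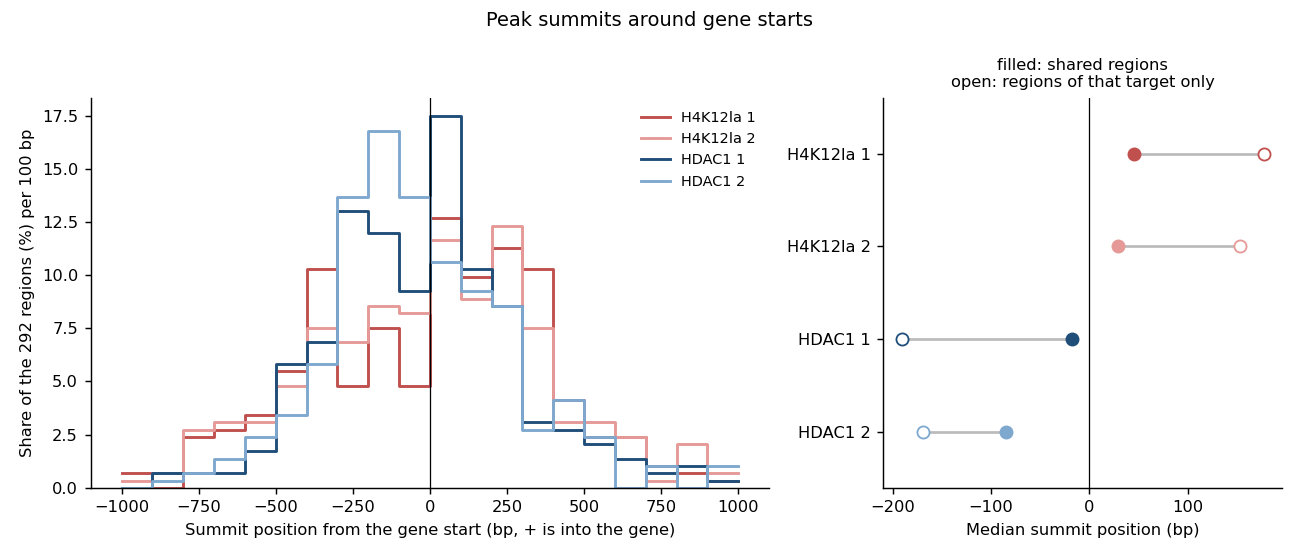
Left, share (%) of the 292 single-start shared regions with a summit in each 100 bp step of distance from the gene start (bp, positive into the gene), for the 4 libraries. Right, median summit position (bp) per library in shared regions (filled) and in regions of that target alone (open): shared medians run from -85 to 45 bp and the others from -191 to 178 bp.

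The genes of the members were counted in 31 lists of gene functions, and the background for every count is the 3.1% of all coding genes. Of the 31 lists, 20 were above that share, and 152 of the 616 genes were in any list. The lists together held 3356 of the coding genes, 4.53% of which had a shared region. The lists were drawn up with earlier results of these data known, so the counts describe the members and were not tested. With peaks of -log10 q of at least 5, where 309 genes were touched, 18 of the 20 lists remained above the share of all genes. Those that dropped below were the Wnt target and the autophagy and lysosome lists. The order of the lists changed with that setting: the share of all genes was then 1.56%, and DNA repair genes had the highest share of any list, 7 genes or 4.76%. Aminoacyl-tRNA synthetases went from 5 genes to 1 (2.63%), transcription machinery from 13 to 4, and oxidative phosphorylation and the nuclear pore list from 6 to 2 each.

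Mitochondrial and translation genes were spread unevenly. Aminoacyl-tRNA synthetases, which charge tRNAs with amino acids, had the highest share with all peaks, 5 of 38 or 13.2% (5.75 to 27.3), which rests on 1 gene at the stricter q: FARSB, WARS2, YARS1, NARS2 and EARS2. WARS2, a mitochondrial enzyme, had folds of 3.75 and 4.68 for H4K12la and 6.30 and 7.20 for HDAC1. Oxidative phosphorylation subunits had 6 of 76 (7.89%, 3.67 to 16.2), led by UQCRC2, a core subunit of complex III, with 4.52 and 4.13 for H4K12la and 6.50 and 6.83 for HDAC1. ATP5PD, NDUFA2 and NDUFA6 had folds of 3.42 to 4.72 for H4K12la and 4.22 to 4.97 for HDAC1. Of the synthetases 10.5%, and of the oxidative phosphorylation subunits 6.58%, had an H4K12la-only region. Mitochondrial ribosomal proteins were at the background, 2 of 77 (2.60%), MRPL45 and MRPS18B, while 18 of the 77, or 23.4%, had an H4K12la-only region. Cytosolic ribosomal proteins had 1 of 79, RPL7. Among mitochondrial import, carrier and assembly genes, 5 of 96 had a region. SLC25A46, an outer-membrane carrier protein, had high H4K12la folds of 6.21 and 6.09 with 4.89 and 5.55 for HDAC1, and TOMM70, an import receptor, had the highest HDAC1 replicate 1 fold of all members, 9.91.

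The transcription machinery had 13 of 144 genes with a shared region (9.03%, 5.35 to 14.8), and 3 of these act in mitochondria: TFAM, TFB1M and TFB2M, a group singled out after the values were seen. TFB1M had folds of 4.32 and 5.29 for H4K12la and 7.84 and 6.91 for HDAC1. TFB2M, a subunit of the mitochondrial initiation complex, had 3.59 and 4.53 for H4K12la and 7.17 and 6.31 for HDAC1. TFAM was the reverse in rank, with 5.21 and 5.46 for H4K12la and 4.62 and 4.62 for HDAC1. Nuclear genes of the list included POLR3F, a subunit of RNA polymerase III (4.77 and 4.87 for H4K12la, 4.96 and 5.56 for HDAC1), and INTS13 of the Integrator complex, together with the elongation kinases CDK12 and CDK13 and the cyclins CCNK and CCNT2. Nuclear pore and transport genes had 6 of 61 (9.84%, 4.59 to 19.8): NDC1, XPO1, SEH1L, NUP88, TPR and CSE1L. XPO1, the main export receptor, had folds of 3.87 and 3.82 for H4K12la and 6.0 and 6.69 for HDAC1. For comparison, H4K12la-only regions touched 13.1% of the nuclear pore list and 8.33% of the transcription machinery list. HDAC1-only regions touched 6.56% and 4.86% of them.

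Genes of the cilium and centrosome had 12 of 139 (8.63%, 5.01 to 14.5), 8 of them in head-to-head regions. CEP290 had folds of 4.92 and 5.27 for H4K12la and 8.08 and 8.28 for HDAC1, BBIP1, a BBSome subunit, 4.44 and 4.6 for H4K12la and 7.68 and 5.59 for HDAC1. Vesicle trafficking had 16 of 222 (7.21%, 4.48 to 11.4), headed by SEC23B, a COPII coat subunit, with 6.94 and 6.45 for H4K12la and 5.99 and 5.47 for HDAC1 and with its 4 summits at 192 to 217 bp into the gene. VTI1A, a SNARE protein, and TRAPPC8, a tethering factor, were in this list as well. Cell cycle and replication genes had 12 of 174 (6.90%, 3.99 to 11.7). CDC45 had folds of 4.80 and 5.40 for H4K12la and 6.75 and 6.07 for HDAC1, and CDC27, a subunit of the anaphase-promoting complex, 4.67 and 5.72 for H4K12la and 8.25 and 5.96 for HDAC1. SMC3 and MAD2L1, a spindle checkpoint protein, were also members. DNA repair had 9 of 147 (6.12%), among them SHLD2 of the shieldin complex, TDG, a DNA glycosylase, and RAD1 of the 9-1-1 clamp. Ubiquitin and proteasome genes had 12 of 188 (6.38%), with UFD1, PSMG1, UBA6 and FBXO5, an inhibitor of the anaphase-promoting complex. Raised shares in these lists were not particular to the members. H4K12la-only regions touched 4.81% of all coding genes, but 16.2% of the vesicle trafficking and 12.2% of the cilium and centrosome genes. They touched 12.8% of the ubiquitin, 12.2% of the DNA repair and 5.75% of the cell cycle list, the last below the members' share.

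Chromatin modifiers and members of HDAC1 complexes had 11 of 212 (5.19%, 2.92 to 9.05), while H4K12la-only and HDAC1-only regions touched 7.55% and 8.02% of this list. SUV39H2, a histone H3 lysine 9 methyltransferase, had folds of 4.69 and 4.87 for H4K12la and 5.11 and 5.43 for HDAC1. PRMT2, an arginine methyltransferase, had 4.61 and 6.06 for H4K12la and 7.64 and 5.15 for HDAC1. JARID2, a component of Polycomb complex PRC2, and SETDB2 were also near the top of the list. The subunits of HDAC1 complexes among them were RBBP4 and BRMS1L, a SIN3-complex protein, with H4K12la folds of 3.26 and 4.15 and of 3.41 and 4.11. Chaperones (5 of 92, led by HSPA13, HSPA8 and EIF2AK3), splicing factors (5 of 120, among them PRPF4) and translation factors (3 of 59, EIF3H, EIF3J and EIF5B) were also above the background share, with intervals that included it.

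Several groups had few members or none. Glycolysis and lactate genes, which supply the lactyl group, had 1 of 43, GPI, glucose-6-phosphate isomerase, with folds of 3.03 and 3.35 for H4K12la and 7.45 and 5.71 for HDAC1. Hepatocyte identity genes had 1 of 67, F5, with 3.80 and 4.74 for H4K12la and 5.17 and 4.68 for HDAC1. No gene of 55 for cholesterol and fatty acid synthesis had a shared region, though 5 had an H4K12la-only region. None of the 69 replication-dependent histone genes had one, though 11 had an HDAC1-only region, and their near-identical copies make read placement uncertain. None of the 35 immediate early genes with MYC, 30 blood and immune markers, 30 neuron and muscle markers or 387 olfactory receptors had one. Zinc finger genes on chromosome 19 had 3 of 255 (1.18%, 0.401 to 3.40), ZNF430, ZNF260 and ZNF146, and those elsewhere 13 of 283 (4.59%, 2.70 to 7.70). ZNF430 had H4K12la folds of 5.06 and 5.21, above the upper quartile of the members in each replicate (4.41 and 4.86). Its HDAC1 folds, 5.42 and 5.52, lay between the members' lower and upper quartiles in each replicate. ZNF131 was stronger for HDAC1 (8.44 and 8.27) than most members.

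Small lists of stress, signalling and metabolic genes each held 2 or 3 genes, and the interval of every one of these shares included 3.1%. Among p53 targets 2 of 32 (6.25%) had a region, TP53I3 and RRM2B, a ribonucleotide reductase subunit, with HDAC1 folds of 7.24 and 7.15 for the latter. Hypoxia genes had 2 of 28 (7.14%), ANKRD37 and P4HA1, a collagen prolyl hydroxylase. Wnt targets had 2 of 22 (9.09%), LGR5 and DKK1, a secreted Wnt antagonist, both with low folds: DKK1 had 2.56 and 3.04 for H4K12la and 4.49 and 4.91 for HDAC1. Autophagy and lysosome genes had 3 of 84 (3.57%), ATG3, WIPI1 and PSAP. The citric acid cycle list had 2 of 31 (6.45%, 1.79 to 20.7), PDHX and DLD, both of the pyruvate dehydrogenase complex.

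**Figure D5:**
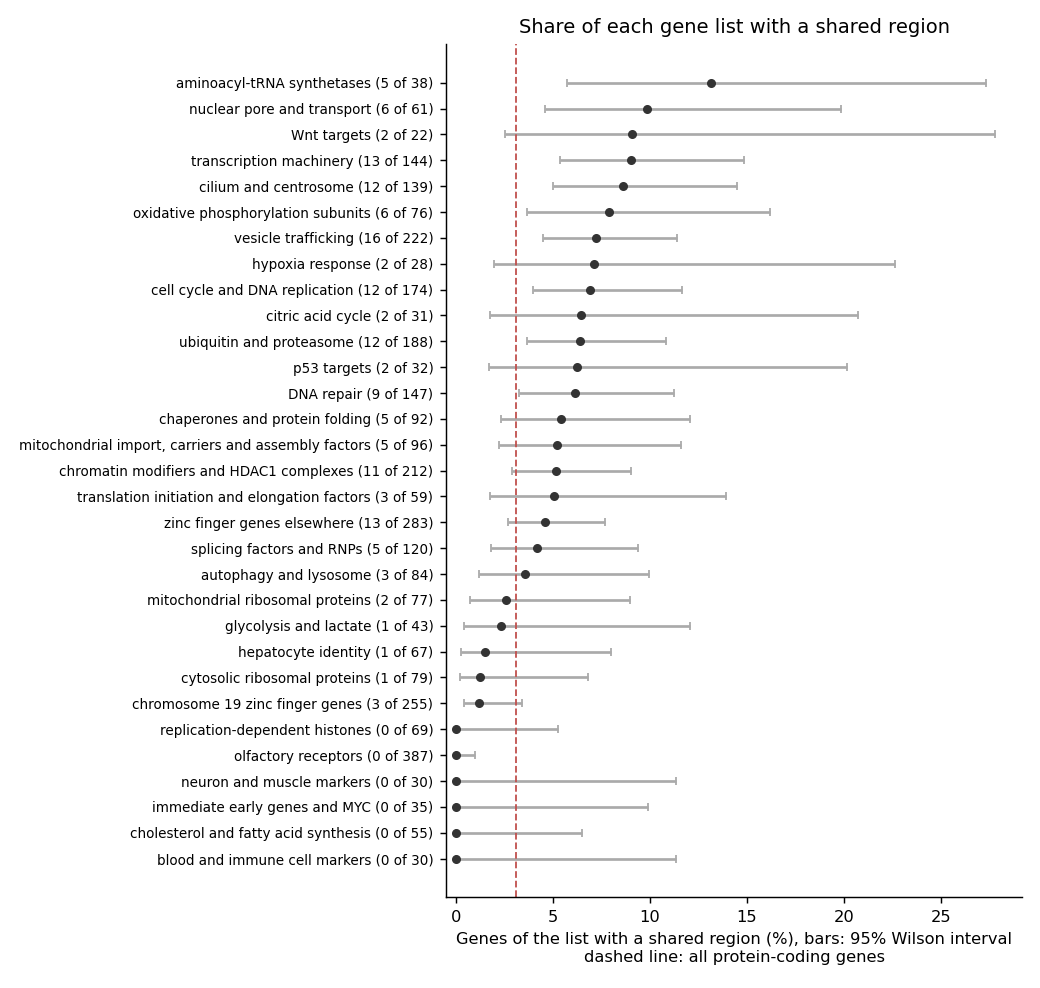
Share of each gene list with a shared region (horizontal axis, %), with 95% Wilson intervals that cover counting error only and the counts beside each name. The dashed line is the 3.1% of all protein-coding genes: aminoacyl-tRNA synthetases (13.2%) are highest and 6 lists have no gene.

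The promoters of the genes with a shared region were compared by sequence with all promoters of the RefSeq table, each of 300 bases from 250 before to 50 after the start. Of the 616 genes, 534 had an entry. Their median GC content was 63.0%, against 62.7% over all 15841 promoters, and their median ratio of observed to expected CpG was 0.831 against 0.763. Promoters of low GC content were fewer among them: 83.1% exceeded 55% GC, against 72.4% of all, and the lower quartiles were 57.7% and 54%. The motif shares below were not adjusted for base composition. The motifs were searched on both strands, a promoter was counted once per motif, and no motif contains another although matches may share bases. The GC box GGGCGG, bound by SP and KLF factors, was in 69.7% (65.6 to 73.4) of the 534 and in 58.5% of all promoters, with 62.9% for H4K12la-only and 76.5% for HDAC1-only genes. CCAAT, bound by NF-Y, was in 45.7% (41.5 to 49.9) against 36.4%, with 34.0% for H4K12la-only and 53.3% for HDAC1-only genes. CCGGAAG, the ETS motif, was in 20.4% (17.2 to 24.0) against 14.2%, with 26.8% for H4K12la-only and 18.7% for HDAC1-only genes. The shared genes thus lay between the single-target sets for these motifs.

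Other motifs were rarer. The NRF1 core GCATGCGC was in 6.93% (5.07 to 9.40) of the 534 promoters and 4.26% of all, and AAGATGGCG, bound by YY1, in 5.06% (3.50 to 7.26) and 2.74%. ACTACAATT, the ZNF143 core, was in 1.5% (0.761 to 2.93) and 0.461%, and the palindrome CTCGCGAG in 3.18% (2.00 to 5.04) and 1.53%. TATAAA was less frequent, in 4.49% (3.04 to 6.6) against 9.63%. CACGTG, the E-box, was in 10.1% against 8.88% and TGACGTCA, the cAMP response element, in 2.43% against 2.59%, with intervals that included the share over all promoters. For several of these features the single-target genes were close to the members. Promoters of H4K12la-only and HDAC1-only genes held TATAAA in 4.0% and 5.93%, the NRF1 core in 6.24% and 5.93% and the YY1 motif in 6.87% and 4.21%, with CpG ratios of 0.844 and 0.854. UQCRC2 was among the few members with a TATAAA, at -93 to -88, with its H4K12la summits at -113 and -64 and its HDAC1 summits at -279 and -225. A match to these letters is a description of the sequence and says nothing on whether the factor was bound.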

How the data were processed

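CUT&Tag libraries of HepG2 cells for ENO1, H4K12la and HDAC1 (2 replicates each, grouped and numbered by title) were used as deposited narrow peak lists, 1 per library, so peaks were called per sample. Per the submitters' processing notes, FastQC, Bowtie2, MACS2 and deepTools were used on build hg38. Their versions and settings and any control library: not given in the sources used here. In the lists deposited by the authors, column 7 is a fold (ratio) of summit signal over local background within a library, so folds of different libraries share no scale. The authors also deposited -log10 p and -log10 q values and a score per peak. The lowest -log10 q in each list lay between 2.00 and 2.09. Depth is unknown.

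The regions were merged and assigned with Python 3.11.15, pandas 2.3.3 and numpy 2.4.6. SciPy 1.17.1 gave correlations and Wilson intervals at 95%. Gene ends and starts came from RefSeq GRCh38.p14 tables, which share coordinates with hg38. Entries listed out of position order, taken to be alternate or unplaced sequences (this was not checked), were left out (171 protein-coding). Promoters on chromosome 8 were not considered for printing. A region's value in a library is that of its strongest peak. The labels' replicate numbers do not pair samples across targets by any stated source. The procedure was tested on simulated data: 300 of 300 planted regions among 500 simulated were recovered, with no false member. The planted peaks overlapped at isolated gene starts, so this checks the code and not how it behaves on these lists. The members and gene lists were chosen with earlier results of these data known.

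Genes were named by rule: the 20 regions with the best mean rank, up to 4 genes per list with the highest lowest fold, the 5 regions at each extreme of rank difference, the 5 largest and 3 smallest summit offsets among the 459 regions with 1 peak per library, the 3 regions on either side of the 1 kb limit, and ENO1, HDAC1, LDHA and MYC. Other named genes, such as those with near-identical summits or printed promoters, were chosen after their values were seen.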

Additional observations from a re-analysis of the deposited data

How the results depend on the processing

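The count of 467 regions fell to 233 with peaks of -log10 q of at least 5 and to 291 with equal numbers of strongest peaks, and the genes touched from 616 to 309 and 376. It stayed between 456 and 481 with other merging, windows of 500 bp or 2 kb, ENO1 peaks allowed or each library's own peak required in the window. Leaving out 1 library at a time, with members chosen again, gave 469 to 786 regions and 618 to 1015 genes, with the lowest values without an ENO1 library and the highest without HDAC1 replicate 2. Those settings moved the median summit position between 38 and 59.5 bp in H4K12la replicate 1, -3 and 47.5 bp in H4K12la replicate 2 and -60 and 12.5 bp in HDAC1 replicate 1. The sign reversed at -3 bp without H4K12la replicate 1 and at 12.5 bp without HDAC1 replicate 2. The median HDAC1 replicate 1 fold ran from 5.16 to 5.51. The cause of these shifts was not tested beyond the change of members that each setting makes.

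Between-target minus same-target summit distance was 49.75 bp and the same difference in rho was -0.36, and both kept their sign under every alternative run. With the replicate block, which keeps only pairs of the same number, they were 47 bp and -0.37. The labels do not say that a number pairs libraries across targets. The settings that leave out a library (for every value but the count of regions), those that keep only the 156 strongest regions, and the gene counts other than at 500 bp and the stricter q were chosen after seeing the data. The lists carry no depth, so an absent peak does not show absent signal, and 2 libraries per target limit every exact test to p = 0.333.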
